A study of Mus musculus with 111 samples.

Results

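Testis small RNA of mice on a high-fat diet was compared with testis small RNA of mice on the matching high-fat control diet. The 9 libraries, 4 high-fat and 5 high-fat control, were taken by their sample titles out of 111 libraries from 6 mouse tissues and 4 diets. The high-fat diet supplied 60% of its calories as fat, a figure that its label sets against 16%, and the high-fat control diet supplied 7.2%. Both groups had been on their diet for 6 months and were housed with at most 5 animals to a cage. The other testis libraries, 5 of a low-protein diet (10% protein) and 5 of its own control diet (18% protein), entered the fits and are quoted only for scale. The labels state neither strain, nor age, nor how many animals a library holds. Whether each library is a separate animal is not stated, so a p-value here reflects library-to-library spread, which may be technical. OTTR-seq, the library method, adds both adapters during reverse transcription, and the table gives whole-number counts of reads for each small RNA by name.

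Small RNAs of the testis come from several sources. Transfer RNAs (tRNAs) carry amino acids to the ribosome, in the cytosol and, from a separate set of genes, inside mitochondria. The mitochondrial genome is transcribed from both strands into long precursors, and tRNAs punctuate them and are cut out as the precursor is processed. Germ cells transcribe long single-stranded precursors that are cut into PIWI-interacting RNAs (piRNAs), which guide PIWI proteins against transposons and are abundant in spermatocytes and spermatids. Small nucleolar RNAs (snoRNAs) guide the chemical modification of ribosomal and spliceosomal RNA, and small nuclear RNAs (snRNAs) form the core of the spliceosome.

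The sequences below belong to the mitochondrial tRNAs and the snoRNA with the smallest p-values of their class in the comparison, and they are shown because the main values concern them. They were read from the GENCODE M21 transcripts on GRCm38 (the assembly of mm10), 5′ to 3′. In the tRNAs the capitals mark the anticodon, which starts at base 31 in both and lies in a loop closed by 5 base pairs. The serine tRNA, annotated as mt-Ts1, lies at chrM:6870-6938 on the minus strand. The glutamate tRNA, annotated as mt-Te, lies at chrM:14071-14139 on the minus strand.
mt-tRNA-Ser-TGA-1: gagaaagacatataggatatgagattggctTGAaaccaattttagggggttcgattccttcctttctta
mt-tRNA-Glu-TTC-1: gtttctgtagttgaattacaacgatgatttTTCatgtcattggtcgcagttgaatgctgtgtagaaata
In the snoRNA the capitals mark the letters CTGA, the box D sequence, which 96 of 98 transcripts named Snord (98.0%) hold within their last 20 bases. Snord2 lies at chr16:23108953-23109021 on the plus strand within Eif4a2 and overlaps an annotated exon of that gene. It is a C/D box snoRNA, the kind that guides 2′-O-methylation.
Snord2: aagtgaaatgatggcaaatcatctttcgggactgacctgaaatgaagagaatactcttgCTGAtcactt

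The table's entries were reduced to 796 features, because the same reads often recur under several names, and levels are reads scaled to 1000000 feature reads (RPM). The high-fat libraries held 10118 to 118999 feature reads and the high-fat control libraries 19513 to 43267, so that 1 read is worth 98.8 RPM in high-fat replicate 2 and 8.40 RPM in high-fat replicate 3. piRNA precursors, the germ-line mark, made up 2.41% to 11.1% of the reads in high-fat and 5.40% to 15.2% in high-fat control testis. In caput epididymis the same precursors reached at most 0.0549% in high-fat and 0.0319% in high-fat control libraries. Of the 3 entries taken as marks of cauda epididymis, all 3 were detected, with summed shares of 0.198% to 0.722% in high-fat and 0.294% to 0.846% in high-fat control testis. The 3 entries taken as marks of sperm summed to 0.424% to 1.39% in high-fat and 0.581% to 1.21% in high-fat control testis. These entries, Gm24187, Gm24270 and Gm23935, had 242, 264 and 295 reads in high-fat replicate 4. Counts of Gm23935 and Gm24270 differ by 11%. The entries thus seem to share most reads, and their sum may count a read more than once. High-fat replicate 4 stood apart from the other 3 high-fat libraries. On the first principal component of the 9 libraries, which held 38.8% of the variance, it lay at -10.2, against 6.54 to 20.0 for the other 3, and the high-fat control libraries lay between -14.6 and -1.15. High-fat control replicate 3 held the largest share of piRNA precursors, 15.2%, against 5.40% to 7.64% in the other 4 control libraries. The class values and the features that move most with either library are also given without it.

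No feature passed the test. Of 444 features tested with edgeR's quasi-likelihood test and Benjamini-Hochberg adjustment, 0 (0%) had an adjusted p under 0.05, and 20 (4.5%) had an unadjusted p under 0.05, 5 higher (1.13%) and 15 lower (3.38%) in high-fat testis. DESeq2 on the same features called 2, both lower in high-fat testis, which are the mitochondrial tRNAs printed here. limma-voom with a weight for each library called 10, 1 higher and 9 lower. With only the 9 libraries in the fit and 246 features tested, edgeR called 1, DESeq2 4 and limma-voom with library weights 41, of which 20 were higher and 21 lower. In that limma-voom fit high-fat replicate 4 had the lowest weight, 0.22, and high-fat control replicate 3 the next, 0.42. The highest weight was 2.26. The precision of the comparison was low, with a median standard error of 0.63 on the log2 scale and a 95% interval within 2 of 0 for 249 of the 444 features. Features whose 4 high-fat RPM values all lay above or all below the 5 control values numbered 9 (2.03%), 5 above (1.13%) and 4 below (0.901%). The features named here are therefore described by their values.

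**Figure D1:**
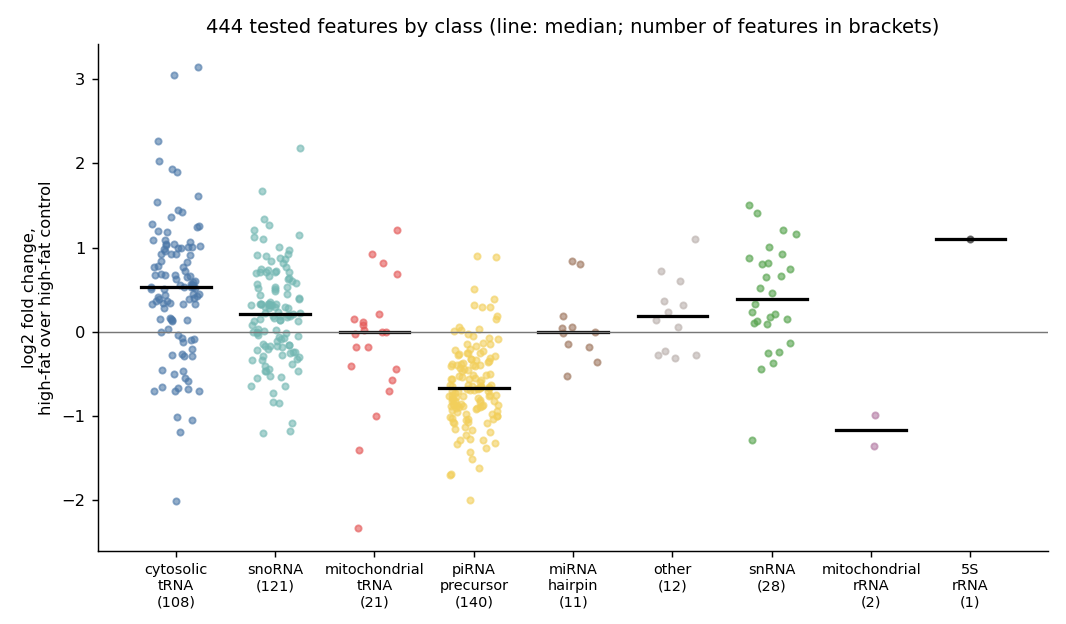
The log2 fold change of each of the 444 tested features, high-fat over high-fat control testis, by class; each point is a feature, black lines are class medians and the number of features stands under each class. piRNA precursors centre at -0.67 and cytosolic tRNAs at 0.53, while the median over all tested features is -0.01.

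The mitochondrial serine tRNA with anticodon TGA, which reads the UCN serine codons, had the smallest p of the comparison. It stood at 1407, 593, 1345 and 744 RPM in the high-fat libraries, against 6864, 4244, 2866, 5945 and 7651 RPM in the high-fat control libraries. Every high-fat value was below every control value. The log2 fold change was -2.33 ± 0.53 (SE; n = 4 and 5; edgeR adjusted p = 0.072). The reads behind these values numbered 249 in high-fat and 938 in high-fat control testis. Over 22 other settings its log2 fold change stayed between -2.54 and -1.99, and its adjusted p by the edgeR, DESeq2 or limma fits ran from 7.3e-05 to 0.707, under 0.05 in 6 of them. Both limma-voom fits, DESeq2 on only the 9 libraries and the fit over 6 tissues are among the 6. They were chosen after seeing the data, and the lowest adjusted p is that of DESeq2 on the 9 libraries. Without high-fat replicate 4 the log2 fold change was -2.06. Testis libraries of the low-protein diet held 611 to 2826 RPM and those of its control diet 402 to 4906 RPM, so the high-fat values lay within the span of those 10 libraries and 3 of the 5 high-fat control values lay above 4906 RPM.

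The mitochondrial glutamate tRNA had the second smallest p. Its levels were 5031, 4843, 6849 and 4119 RPM in the high-fat libraries, against 11302, 12303, 17621, 13581 and 17795 RPM in the high-fat control libraries. The groups did not overlap, and the log2 fold change was -1.40 ± 0.39 (SE; n = 4 and 5; edgeR adjusted p = 0.341). Its adjusted p over the same other settings of edgeR, DESeq2 and limma ran from 0.0143 to 0.946 and was under 0.05 in 4. Among the 4 are both limma-voom fits and DESeq2 on only the 9 libraries, which were chosen after seeing the data. Without high-fat replicate 4 its log2 fold change was -1.15. Both tRNAs are encoded on the light strand.

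Within the mitochondrial tRNA pool the same pair stood out. The serine tRNA made up 0.762% to 1.24% of mitochondrial tRNA reads in high-fat libraries, against 1.91% to 6.46% in high-fat control libraries. The glutamate tRNA made up 4.22% to 6.90% of that pool in high-fat libraries, against 8.30% to 15.0% in high-fat control libraries. They were the 2 of 21 mitochondrial tRNAs (9.52%) whose high-fat shares all lay below the control shares. The threonine tRNA, mt-tRNA-Thr-TGT-1, which is encoded on the heavy strand, was the 1 of 21 (4.76%) with all shares above, at 1.98% to 2.54% of the pool in high-fat and 1.13% to 1.39% in high-fat control libraries. These shares are parts of a whole, so a lower share of some members raises the others.

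Of the 22 mitochondrial tRNAs 21 were tested, and 0 in either direction passed in the edgeR fit of the 19 testis libraries; mt-tRNA-Ser-GCT-1 had 0 reads in both groups. The edgeR fit of only the 9 libraries called the serine TGA tRNA lower. DESeq2 and limma-voom with library weights each called the serine TGA and glutamate tRNAs lower, and limma-voom on only the 9 libraries also called mt-tRNA-Lys-TTT-1 higher. On the light strand 6 of 8 had a log2 fold change below 0, with a median of -0.30, and 2 of the 6 were the serine and glutamate tRNAs. The others of the light strand ranged from -0.70 ± 0.58 for mt-tRNA-Asn-GTT-1 to 0.15 ± 0.47 for mt-tRNA-Gln-TTG-1 (SE). On the heavy strand 6 of 13 were below 0, with a median of 0.08, from -1.003 ± 0.66 for mt-tRNA-Gly-TCC-1 to 1.21 ± 0.96 for mt-tRNA-Ile-GAT-1 (SE), and none of these intervals excluded 0. Without high-fat replicate 3 the median over all mitochondrial tRNAs was -0.68, against -0.01 with it, and that of the light strand was -1.08. The mitochondrial tRNAs with the most reads were those of valine and methionine. mt-tRNA-Val-TAC-1 averaged 45413 ± 12976 RPM in high-fat and 48664 ± 9936 RPM in high-fat control testis (SD, n = 4 and 5), and mt-tRNA-Met-CAT-1 averaged 28451 ± 7020 RPM in high-fat and 27876 ± 5665 RPM in high-fat control testis (SD, n = 4 and 5). For both, the means differed by less than the spread between libraries.

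**Figure D2:**
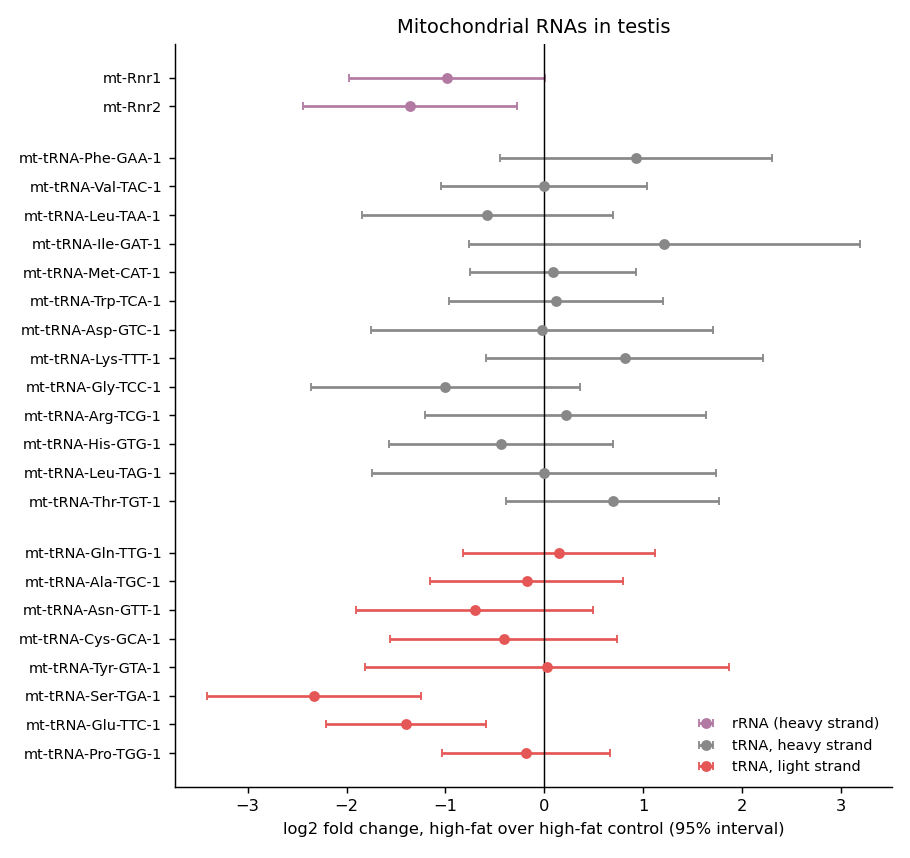
Log2 fold change, high-fat over high-fat control testis, with its 95% interval for the 2 ribosomal RNAs and the 21 tested tRNAs of mitochondria, grouped by coding strand and ordered by position in the genome. The intervals of mt-tRNA-Ser-TGA-1 (-3.41 to -1.24), mt-tRNA-Glu-TTC-1 (-2.21 to -0.59) and mt-Rnr2 (-2.44 to -0.27) lie below 0, and the other 20 cross it.

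The mitochondrial ribosomal RNAs had log2 fold changes below 0, and neither passed the edgeR test. limma-voom with library weights called mt-Rnr2 lower, and both when only the 9 libraries were fitted; DESeq2 on the 9 libraries called mt-Rnr2. mt-Rnr2, the 16S RNA of the large mitochondrial ribosome subunit, stood at 12279.7, 10378, 13143 and 28832 RPM in high-fat libraries, against 55816, 36552, 51942, 32952 and 32833 RPM in high-fat control libraries. The groups did not overlap, although the high-fat values lay within the 2127 to 30397 RPM of the low-protein and control-diet testis libraries, and the log2 fold change was -1.36 ± 0.53 (SE; n = 4 and 5; edgeR adjusted p = 0.739), or -1.58 without high-fat replicate 4. mt-Rnr1, the 12S RNA of the small subunit, stood at 4433, 4744, 4294 and 12685 RPM in high-fat libraries, against 15347, 10912, 18873, 10352 and 10049 RPM in high-fat control libraries. Here high-fat replicate 4 lay within the control range, and the log2 fold change was -0.99 ± 0.48 (SE; n = 4 and 5; edgeR adjusted p = 0.739), or -1.31 without high-fat replicate 4.

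Summed as a class, mitochondrial ribosomal RNA took 1.67%, 1.51%, 1.74% and 4.15% of feature reads in high-fat libraries, against 7.12%, 4.75%, 7.08%, 4.33% and 4.29% in high-fat control libraries. It was 1 of 2 classes of 9 (22.2%) whose ranges did not overlap. The difference in means was -3.24 percentage points, with an exact two-sided permutation p of 0.0159, the smallest that splits of 4 against 5 libraries can give, and 0.0714 after Benjamini-Hochberg adjustment over the 9 classes. High-fat replicate 4 held more than the other 3 high-fat libraries and was just under the lowest control. Low-protein testis held 0.510% to 3.80% and testis of its control diet 0.302% to 3.67%, so all 5 high-fat control libraries exceeded all 10 of these.

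**Figure D3:**
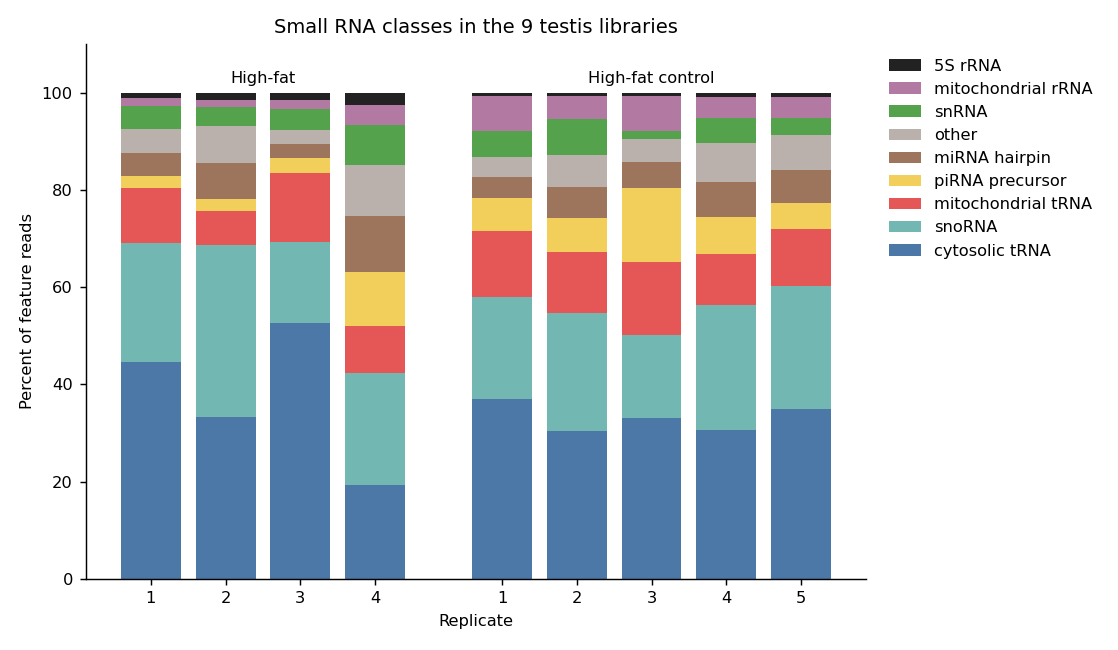
Percent of feature reads in 9 small RNA classes for each testis library, high-fat on the left and high-fat control on the right; each bar is a library and adds to the whole. High-fat replicate 4 has the smallest share of cytosolic tRNA (19.3%), and piRNA precursors range from 2.41% in high-fat replicate 1 to 15.2% in high-fat control replicate 3.

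The other class without overlap was 5S ribosomal RNA, which RNA polymerase III transcribes from repeated genes and which joins the large ribosomal subunit. Its many near-identical entries are represented by Gm25018, at chr8:123565969-123566087 on the minus strand. It stood at 10274, 15319, 15622 and 25561 RPM in high-fat libraries, against 7419, 6633, 7444, 8199.7 and 9953 RPM in high-fat control libraries. All high-fat values lay above all control values, and replicate 4 was the highest. The log2 fold change was 1.10 ± 0.45 (SE; n = 4 and 5; edgeR adjusted p = 0.739). As a share of feature reads, Gm25018, the only 5S entry of 56 kept as a feature, was at 1.67% ± 0.640 in high-fat and 0.793% ± 0.126 in high-fat control testis (SD, n = 4 and 5, exact two-sided permutation p = 0.0159, 0.0714 adjusted over the classes). The other 5S entries are not summed in this share. A low-protein library reached 2.73%, so the high-fat values were not outside the span of the other diets.

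piRNA precursors leaned towards lower values in high-fat testis. Of 248 precursors 140 passed the filter on low counts, 127 of these had a log2 fold change below 0 and 13 above, and their median was -0.67. Over all 444 features tested, 227 (51.1%) were below 0 and the median was -0.01. None passed the adjusted threshold in edgeR or DESeq2, and 10 of the 140 were lower with an unadjusted p under 0.05 in edgeR, against 3.38% of all features tested. limma-voom with library weights called 6 precursors lower, among 10 of 444 features called. When only the 9 libraries were fitted it called 15 lower, among 41 of 246 features called. The fit of the 9 libraries gave its lowest weights to high-fat replicate 4 (0.22) and high-fat control replicate 3 (0.42). The precursors named after a chromosome band gave 104 of 112 below 0 and those named after a host gene 23 of 28. Overlapping precursors share reads, so these are not independent values. In bulk tissue, fewer germ cells and less precursor RNA in each cell cannot be told apart.

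The library values divide the high-fat group. Of the 140 tested precursors, 134, 128 and 132 lay below the control median in high-fat replicates 1, 2 and 3, and 17 in replicate 4. In replicate 2, the shallowest library, 72 of the 140 had 0 reads. Summed over all 248 precursors, the class took 2.41%, 2.55%, 3.06% and 11.1% of feature reads in high-fat libraries, against 6.76%, 6.92%, 15.2%, 7.64% and 5.40% in high-fat control libraries. The first 3 high-fat values lay below every control value, and the fourth lay above 4 of the 5. The difference in means was -3.62 percentage points (exact two-sided permutation p = 0.238, adjusted p = 0.571). Without high-fat replicate 4 it was -5.71 points and the median log2 fold change of the precursors was -1.28; without high-fat control replicate 3 they were -1.91 points and -0.38. The low-protein and control-diet testis libraries held 1.31% to 5.10% and 0.412% to 4.21%, which spans the first 3 high-fat libraries and lies below all high-fat control libraries.

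**Figure D4:**
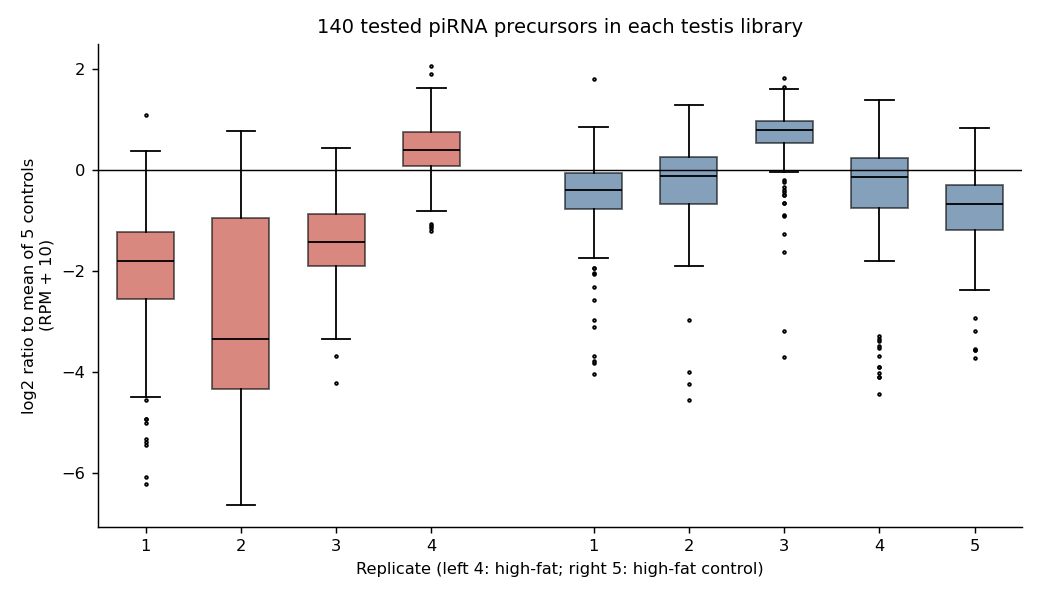
Distribution over the 140 tested piRNA precursors of the log2 ratio of each library's level to the mean of the 5 high-fat control libraries (RPM + 10), with high-fat libraries on the left. Medians are -1.80, -3.36 and -1.42 in high-fat replicates 1 to 3 and 0.39 in replicate 4, against -0.68 to 0.80 in the control libraries.

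The precursors with the smallest p-values were the pair pi-Strbp.1 and pi-Strbp.2, whose counts differ by 14.1% and so largely share reads, and the band-named 3-qA2-617.1 and 18-qE1-36451.1. pi-Strbp.1 stood at 141, 0, 134 and 381 RPM in high-fat libraries, against 416, 785, 856, 615 and 312 RPM in high-fat control libraries, with a log2 fold change of -1.62 ± 0.57 (SE; n = 4 and 5; edgeR adjusted p = 0.739). 3-qA2-617.1 stood at 281, 198, 437 and 1454 RPM in high-fat libraries, against 1710.3, 999, 3030.2, 1742 and 1007 RPM in high-fat control libraries. 18-qE1-36451.1 stood at 422, 198, 605 and 2319 RPM in high-fat libraries, against 1757, 2139.6, 3887, 2562 and 1055 RPM in high-fat control libraries. In each, high-fat replicates 1 to 3 were low and replicate 4 overlapped the controls. Log2 fold changes of the 3 precursors with the highest RPM, 2-qE1-35981.2, 9-qC-31469.1 and 7-qD2-24830.3, were -0.83 ± 0.50, -0.90 ± 0.50 and -1.13 ± 0.58 (SE), with intervals that include 0. Without high-fat replicate 4 they were -1.28 for 2-qE1-35981.2, -1.40 for 9-qC-31469.1 and -2.19 for 7-qD2-24830.3. Without high-fat control replicate 3 they were -0.31 for 2-qE1-35981.2, -0.74 for 9-qC-31469.1 and -0.84 for 7-qD2-24830.3. 3-qA2-617.1 and 18-qE1-36451.1 were at -2.06 and -2.04 without high-fat replicate 4, and at -1.15 and -1.04 without high-fat control replicate 3.

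**Figure D5:**
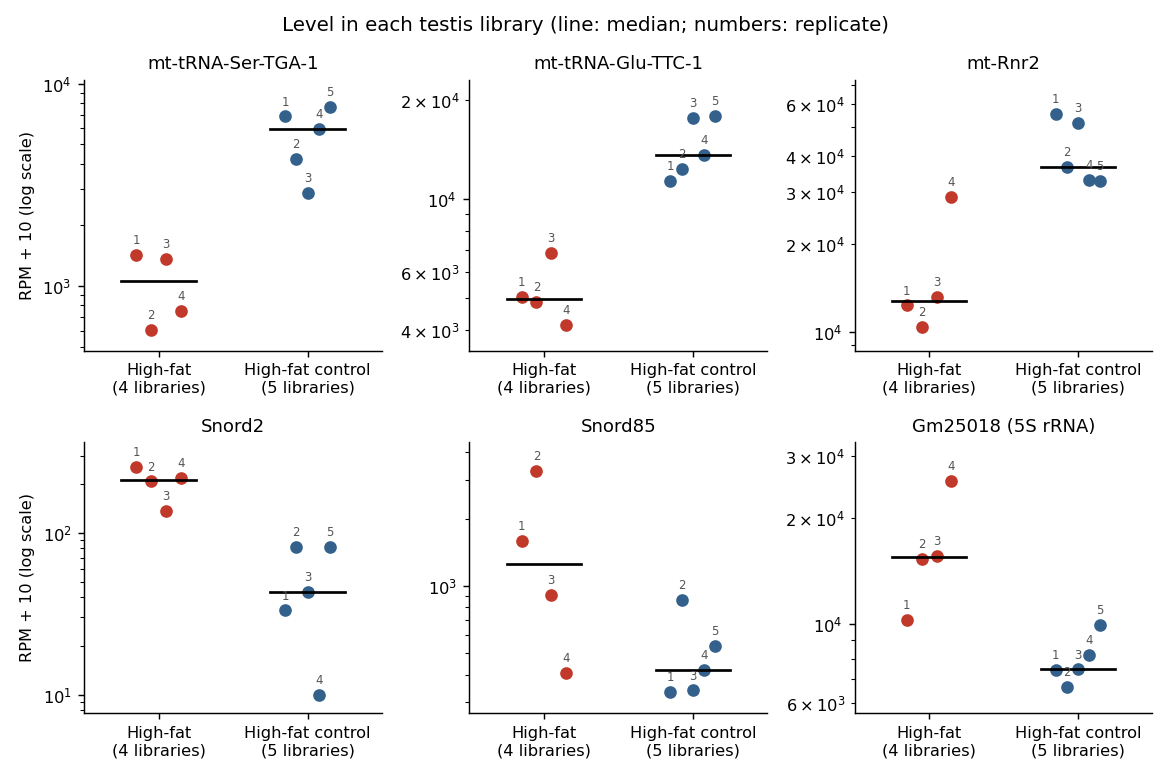
Level (RPM + 10, log axis) in each high-fat (left) and high-fat control (right) testis library of 6 features with small p-values; points are libraries, numbers are replicates and lines are medians. The groups do not overlap for mt-tRNA-Ser-TGA-1, mt-tRNA-Glu-TTC-1, mt-Rnr2, Snord2 and Gm25018, and overlap for Snord85.

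Cytosolic tRNAs leaned the other way, but not in every high-fat library. Of 180 features 108 were tested, 82 had a log2 fold change above 0 and 26 below, with a median of 0.53, against 217 of 444 (48.9%) above 0 and a median of -0.01 over all features. None was called by edgeR's quasi-likelihood test of the 19 libraries or by DESeq2, and the single one with an unadjusted p under 0.05 in edgeR, tRNA-Cys-GCA-8, was lower. limma-voom with library weights on only the 9 libraries called 14 cytosolic tRNAs, all higher. That fit called 41 of 246 features, 20 of them higher, and gave high-fat replicate 4 its lowest weight, 0.22. As a class they took 44.5%, 33.3%, 52.7% and 19.3% of reads in high-fat libraries, against 30.4% to 36.9% in high-fat control libraries, so that replicate 4 was below and replicates 1 and 3 above all controls. Of the 108 tested, 66 and 95 lay above the control median in high-fat replicates 1 and 3. In high-fat replicates 2 and 4, 59 and 76 lay below it. The median log2 fold change was 0.11 without high-fat replicate 3 and 0.91 without high-fat replicate 4. Copies of a tRNA are nearly identical and how reads were divided among them is not stated, which leaves the value of any single cytosolic tRNA uncertain.

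The glycine tRNAs had fold changes close to each other. All 8 tested had a log2 fold change above 0, against 82 of 108 for cytosolic tRNAs in all. They ran from 0.93 to 1.28 with a median of 1.02, and 0 passed the test in edgeR or DESeq2. Some of the 8 had nearly the same counts. tRNA-Gly-CCC-2 held 4, 5, 23 and 7 reads in the high-fat libraries and tRNA-Gly-CCC-3 held 4, 4, 25 and 7. Such entries may share reads, so the 8 are not independent values. limma-voom with library weights on only the 9 libraries, which gave high-fat replicate 4 its lowest weight (0.22), called 5 of them higher. It called 41 of 246 features in all. tRNA-Gly-GCC-2 stood at 24313, 15023, 20395 and 8099 RPM in high-fat libraries, against 7095, 12125, 9091, 8507 and 9209.5 RPM in high-fat control libraries. High-fat replicates 1 to 3 were above every control and replicate 4 lay among them. Low-protein testis held 8024 to 40664 RPM of this tRNA and control-diet testis 9982 to 31754 RPM, so the high-fat values lay within the span of the other diets. As a part of cytosolic tRNA reads, which does not depend on the other classes, glycine tRNAs made up 12.1%, 10.5%, 8.89% and 10.1% in high-fat libraries, against 4.30%, 8.66%, 6.46%, 6.69% and 5.81% in high-fat control libraries. They were the 1 of 22 tRNA families (4.55%), with initiator and selenocysteine tRNAs counted apart, whose ranges did not overlap, and replicate 4 was in place with the other 3. Glutamate tRNAs averaged 27.95% ± 9.23 of cytosolic tRNA reads in high-fat and 34.7% ± 7.08 in high-fat control testis (SD, n = 4 and 5), a smaller difference than the spread. The entry with the most reads, tRNA-Asp-GTC-1, stood at 117765, 71654.5, 157993 and 33504 RPM in high-fat libraries, against 107888, 78775, 45157, 59191 and 68232 RPM in high-fat control libraries, and the groups overlapped. Aspartate tRNAs as a family averaged 27.3% ± 6.53 in high-fat and 25.6% ± 7.36 in high-fat control testis (SD, n = 4 and 5).

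Other families showed mixed signs. Arginine tRNAs had 12 of 13 log2 fold changes above 0 (median 0.54), leucine tRNAs 12 of 14 (median 0.49), valine tRNAs 8 of 9 (median 0.78) and serine tRNAs 9 of 10 (median 0.80). All 8 tested cysteine tRNAs were below 0 (median -0.28), and alanine tRNAs were divided 5 and 5. The tRNAs whose anticodon can carry the modified base queuosine, those of asparagine, aspartate and histidine here, were above 0 in 6 of 6 tested (median 0.84). Among them tRNA-His-GTG-2 had 11154, 5139, 10126 and 3877 RPM in high-fat libraries, against 3975, 5991, 2734, 2819 and 2350 RPM in high-fat control libraries, and the groups overlapped. The selenocysteine tRNA averaged 0.814% ± 0.413 of cytosolic tRNA reads in high-fat and 0.770% ± 0.304 in high-fat control testis (SD, n = 4 and 5). The initiator methionine tRNAs averaged 1.72% ± 0.164 in high-fat and 1.22% ± 0.489 in high-fat control testis (SD, n = 4 and 5).

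snoRNAs took 24.8% ± 7.76 of reads in high-fat and 22.7% ± 3.59 in high-fat control testis (SD, n = 4 and 5). Of 217 features 121 were tested, 77 were above 0 and 44 below, with a median of 0.21, and 0 passed in edgeR or DESeq2. limma-voom with library weights called 1 higher, Snord2, and on only the 9 libraries it called 2 higher, Snord85 and Rnu3b1, and 1 lower, Snord65. The C/D box snoRNAs named Snord gave 36 above and 23 below 0. Snord2 stood at 246, 198, 126.1 and 208 RPM in high-fat libraries, against 23.1, 71.3, 32.9, 0 and 71.9 RPM in high-fat control libraries. The groups did not overlap, but the values rest on 36 reads in high-fat and 7 reads in high-fat control testis, and reads of an Eif4a2 exon cannot be told apart from those of Snord2. Its log2 fold change was 2.18 ± 0.68 (SE; n = 4 and 5; edgeR adjusted p = 0.531). Snord85 stood at 1583, 3262, 899 and 398 RPM in high-fat libraries, against 324, 856, 329, 410.0 and 528 RPM in high-fat control libraries. High-fat replicate 4 was among the controls and the other 3 were above them, with a log2 fold change of 1.68 ± 0.60 (SE; n = 4 and 5; edgeR adjusted p = 0.739), or 1.08 without high-fat replicate 2. Gm26224, a snoRNA at chr1:161035394-161035473 on the plus strand, lies within the snoRNA host gene Gas5 and overlaps an annotated exon of it. It stood at 669, 1186, 866 and 779 RPM in high-fat libraries, against 370, 642, 0, 615 and 336 RPM in high-fat control libraries. These groups did not overlap either, as for 9 of 444 features (2.03%) in all. The reads were 19, 12, 103 and 45 in high-fat and 16, 18, 0, 12 and 14 in high-fat control libraries. A read is worth 35.7 RPM in high-fat control replicate 2, so 1 more there would end the separation. The snoRNA with the most reads was Snord80, with 22252 to 104368 RPM in high-fat and 24314 to 53530 RPM in high-fat control libraries.

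In the remaining classes the summed shares overlapped between the groups. snRNAs took 5.32% ± 1.98 of reads in high-fat and 4.61% ± 2.18 in high-fat control testis (SD, n = 4 and 5), with 22 of 28 tested features above 0 and a median of 0.40. The snRNA entry Gm25412 was the 1 of the 28 whose values did not overlap, against 9 of 444 (2.03%) over all features tested. It stood at 0, 0, 84.0 and 34.6 RPM in high-fat libraries, against 162, 107, 98.8, 102.5 and 95.9 RPM in high-fat control libraries (edgeR adjusted p = 0.739). These are 0, 0, 10 and 2 reads in high-fat and 7, 3, 3, 2 and 4 reads in high-fat control libraries. A single read in high-fat replicate 2 is worth 98.8 RPM, so 1 more read there would end the separation. Entries annotated as microRNA hairpins took 6.62% ± 3.73 in high-fat and 6.01% ± 1.16 in high-fat control testis (SD, n = 4 and 5), with 5 of 11 above 0. The one with the most reads, Gm47295, overlaps Rn7s1 on the same strand. Rn7s1 is the RNA scaffold of the particle that directs secretory proteins to the membrane, and reads of the overlap cannot be assigned to either. Rn7s1 stood at 38000.1, 60387, 20891 and 86598 RPM in high-fat libraries, against 30855, 55096, 33200.5, 61292 and 56984 RPM in high-fat control libraries, and high-fat replicate 4 was the highest of the 9. Rmrp, the RNA of RNase MRP, averaged 1370.1 ± 972 RPM in high-fat and 926 ± 395 RPM in high-fat control testis (SD, n = 4 and 5). Rn7sk, the RNA that holds the elongation factor P-TEFb inactive, averaged 2511 ± 1258 RPM in high-fat and 3102 ± 679 RPM in high-fat control testis (SD, n = 4 and 5). The Y RNAs Rny1 and Rny3 and the RNase P RNA Rpph1 had 20 to 68 reads in high-fat and 10 to 39 reads in high-fat control testis, and their levels overlapped between the groups.

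The high-fat effect in testis was then set against other effects. It differed from the low-protein effect in testis for 0 of 444 features (0%) at an edgeR adjusted p under 0.05 and for 45 (10.1%) at an unadjusted p under 0.05. For mt-tRNA-Ser-TGA-1 the difference of the log2 fold changes was -1.97 ± 0.68 (SE; edgeR adjusted p = 0.453), and the low-protein log2 fold change was -0.36 ± 0.45. Against the mean high-fat effect of the other 5 tissues, 0 of 379 features (0%) were called by edgeR and 16 (4.22%) had an unadjusted p under 0.05. The smallest p-values there belonged to mt-Rnr2 and mt-Rnr1, whose log2 fold change in testis lay below the mean of the other tissues by differences of -2.50 ± 0.67 and -2.44 ± 0.66 (SE; edgeR adjusted p = 0.0773 for both). The next was mt-tRNA-Ser-TGA-1, with a difference of -2.06 ± 0.61 (SE; edgeR adjusted p = 0.137). For mt-Rnr2 the high-fat log2 fold change was 3.02 ± 0.66 in liver (SE; edgeR adjusted p = 0.00115). It was 0.73 ± 0.58 in heart, 0.86 ± 0.59 in caput, 0.97 ± 0.58 in cauda and -0.25 ± 0.58 in sperm (SE). Liver thus weighs most in the mean that mt-Rnr2 was set against. Nothing was thereby shown to be particular to testis.

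Cauda sperm, which form in the testis, gave 0 of 379 features (0%) that differed from testis in the high-fat effect by edgeR's adjusted test and 26 (6.86%) at an unadjusted p under 0.05. mt-tRNA-Ser-TGA-1 had 4 reads in all in the 4 high-fat and 28 reads in the 5 high-fat control sperm libraries. Its log2 fold change there was -2.16 ± 0.84 (SE, edgeR adjusted p = 0.466), and it did not differ detectably from that in testis, with a difference of -0.27 ± 1.49 (SE). The SE of the testis effect in that fit was 0.54, so the 1.49, taken from the root of F, is only rough at so few reads. mt-tRNA-Glu-TTC-1 averaged 1703 ± 903 RPM in high-fat and 3868 ± 2148 RPM in high-fat control sperm (SD, n = 4 and 5), with a log2 fold change of -1.02 ± 0.63 (SE). In heart, caput and cauda the log2 fold changes of the serine tRNA were 0.17 ± 0.50, 0.02 ± 0.60 and 0.92 ± 0.57 (SE), and in liver -0.80 ± 0.61 (SE). A high-fat liver library held only 827 feature reads, so values that include liver are less precise.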

How the data were processed

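The authors deposited 1 table of raw counts, with a row for each small RNA and a column for each library. The tools cutadapt and DESeq2 and the build mm10 are named, per the submitters' processing notes; no aligner, counting rule or use of strand is named there. All 111 columns matched a sample title. From the deposited counts, 246 entries under 50 reads over all libraries were dropped. Another 149 were dropped because their counts differed by less than 5% from a kept entry. By name, 22 mitochondrial genes that also had a tRNA-named entry were dropped. Of 56 5S entries only the 1 with the most reads was kept. In this way 1268 entries gave 796 features. RPM was computed over feature reads. An entry has 1 count for each library, so full-length RNAs cannot be told apart from fragments. Which read lengths were counted is not stated. edgeR 4.0.16 (TMM, filterByExpr, robust quasi-likelihood fit of the 19 testis libraries by diet, R 4.3.3) tested 444 features, with Benjamini-Hochberg adjustment. A standard error is the log2 fold change over the root of F. Shares were compared by exact permutation (scipy 1.17.1). DESeq2 1.42.0 and limma 3.58.1 were alternatives. The script was tested on simulated data. The members and lists, and the comparison itself, were chosen with earlier results of these data known. Named features are those with the smallest p, the highest RPM overall or in their class, and the members of small lists; fold changes of named features in the high-fat comparison of testis are mostly printed where they reach their standard error; range ends and effects of other diets or tissues are printed whatever their size. The glycine tRNAs, Gm26224, Gm25412 and mt-tRNA-Thr-TGT-1 were named after their values were seen. Only 10118 to 118999 reads lie behind a library.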

Additional observations from a re-analysis of the deposited data

Results flagged for a closer look

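Of 136 groups of 4 or 5 libraries, 12 held 1 library far from the others of its diet, and 7 of the 12 were high-fat replicate 4. The cutoffs flag about 1 in 20 groups of normal values. All 12 were the highest value of their group, and the groups share libraries and reads. The count of 12 therefore does not measure an excess. In that library mt-Rnr2 stood at 28832 RPM, against 10378 to 13143 RPM in the other 3 high-fat libraries, and mt-Rnr1 at 12685 RPM, against 4294 to 4744 RPM. Mitochondrial ribosomal RNA made up 4.15% of its reads, against 1.51% to 1.74% in the others. piRNA precursors made up 11.1% of its reads, against 2.41% to 3.06%, and the precursor 7-qD2-24830.3 stood at 3115 RPM, against 198 to 622 RPM. Rnu1a1, an RNA of the U1 spliceosome particle, stood at 2129 RPM, against 704 to 908 RPM. Mir6236 stood at 11976 RPM, against 2393 to 3163 RPM.

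High-fat control replicate 3 held piRNA precursors at 15.2% of reads, against 5.40% to 7.64% in the other 4 control libraries. Its level of 2-qE1-35981.2 was 5599 RPM, against 1295 to 2152 RPM, and its level of 7-qD2-24830.3 was 4479 RPM, against 1439 to 2173 RPM. tRNA-Asp-GTC-2 stood at 23482 RPM in high-fat control replicate 1, against 8761 to 11838 RPM in the other control libraries. tRNA-Pro-CGG-1 stood at 4574 RPM in high-fat replicate 1, against 3558 to 3672 RPM in the other high-fat libraries.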

How the results depend on the processing

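The count of called features, 0 in edgeR, was 2 with DESeq2, 10 with library-weighted limma-voom and 1 in a fit over 6 tissues; with only the 9 libraries it was 1 with edgeR, 4 with DESeq2 and 41 with library-weighted limma-voom. It was 0 in every fit that left out 1 library, with 9 (without high-fat replicate 2) to 81 (without high-fat replicate 4) features at an unadjusted p under 0.05, and 0 for each difference between effects. Both limma-voom fits, DESeq2 on the 9 libraries and the fit over 6 tissues were chosen after seeing the data. Same-numbered libraries did not deviate together (correlations of 0.0312, 0.121, 0.0330 and 0.0612), and a replicate block called 0, with 26 at an unadjusted p under 0.05; mt-tRNA-Ser-TGA-1 then had a log2 fold change of -2.54. The median log2 fold change with 1 library left out ran from -0.68 to 0.25 for mitochondrial tRNAs, from -1.08 to -0.051 for those of the light strand, from -1.28 to -0.38 for piRNA precursors and from 0.11 to 0.91 for cytosolic tRNAs. tRNA-Asn-GTT-1 reversed, to -0.094, without high-fat replicate 3 and was at 2.17 without high-fat replicate 4. As percent of all entries the difference reversed for hairpins (-0.561), other RNA (-0.755), snRNA (-0.432) and snoRNA (-0.832 points), and on the log2 scale for hairpins (-0.016) and other RNA (-0.038). For 5S, where all 56 near-identical entries then count, the difference as percent of all entries was 13.1 points. With 1 library left out, differences ran from -0.758 to 10.4 points for cytosolic tRNA, -1.02 to 1.86 for hairpins, -0.988 to 1.53 for other RNA, -0.262 to 1.41 for snRNA and -1.39 to 4.84 for snoRNA. The cause was not tested. No adjusted p of a class share was under 0.0714. Of 99 class-share values under alternatives, 84 kept their direction and 15 reversed. Depth limits what could be seen: the median 95% interval of a log2 fold change reached 1.29 to either side.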
